A study of Mus musculus with 5 samples.

Results

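The cells described here are 196 midbrain cells with a high level of Sspo, the gene of SCO-spondin. They were taken from the Foxj1 line by a rule on 2 genes: Sspo at 500 CPM (the usual reads-per-depth unit, each count scaled to the total of its cell) or more and Ccdc153, a gene of multiciliated ependymal cells, under 1000 CPM. They made up 35.8% of the 547 midbrain cells of that line (exact Clopper-Pearson 95% interval 31.8 to 40.0) and stood among 1473 cells in the whole series. They are set against the 317 midbrain cells of the same sample with Ccdc153 at 1000 CPM or more, called Ccdc153-high below. The other 34 midbrain cells met neither rule.

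The subcommissural organ is a small secretory gland of the dorsal midline, placed in the roof where the third ventricle narrows into the midbrain aqueduct. Its tall ependymal cells make SCO-spondin, a very large secreted glycoprotein rich in thrombospondin repeats, and release it into the cerebrospinal fluid. There it assembles into Reissner's fibre, a thread that runs down the aqueduct and the central canal of the spinal cord. Ordinary ependymal cells line the ventricles as a ciliated epithelium and move the fluid with beating cilia.

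The series concerned Sox9 and the NFI factors in neurogenesis and in the maturation of ependymal cells. The Foxj1 line was FoxJ1CreERT2 R26TdT, an inducible Cre driven by the promoter of Foxj1, a gene of cells with motile cilia, with a fluorescent reporter. Its mice were 3 months old, 10 animals (5 females and 5 males), and gave 1 sample of each of 4 regions: lateral ventricle (240 cells), aqueduct of the midbrain (547), spinal cord (114) and the wall of the third ventricle (245). Another sample, of 327 midbrain cells came from Nkx2-2Cre R26TrapC mice, 7 females of the same age, with Cre driven by Nkx2-2, a gene of ventral progenitors. In the count table the columns of the lateral ventricle and the third ventricle carry the words forebrain and tanycytes, and they were matched to these samples by anatomy, on which every value of these regions rests. Sex was mixed in the Foxj1 line, no strain or inducer was named, and the labels do not give the animal of a well. Cells were sorted by fluorescence into plates and sequenced by Smart-seq2, which reads full-length cDNA and carries no molecular identifiers.

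Each group held 1 sample, so no comparison has a replicate and no p-value is given. Levels are reads summed over the cells of a set and scaled to CPM, and ranges in brackets are the lowest and highest level over 7 blocks of 96 consecutive cell numbers, which describe spread inside 1 sample. The Sspo-high cells held 163544641 reads in all, with a median of 757938 reads and 5234 detected genes per cell. The Ccdc153-high cells held 255868139 reads, with medians of 691446 reads and 4866 genes. At this depth the exact Poisson 95% interval of a summed level was narrow (Sspo 9921 to 9952 CPM, Spdef 1779.9 to 1793), and it covers counting error only. No cell number occurred more than once and 0 pairs of cells had identical counts.

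Among midbrain cells with little Ccdc153, the Sspo level fell into separate ranges, while Ccdc153 itself ran across its threshold. The lowest members stood at 1051, 1992 and 2067 CPM of Sspo, their median at 9615 and the highest at 35364. Of the Ccdc153-high cells under 500 CPM of Sspo, the highest stood at 484, close to the threshold. Among midbrain cells with Ccdc153 under 1000 CPM, the highest non-members stood at 21.2, 19.8 and 15.8 CPM. Ccdc153 showed no such gap: the highest members stood at 971, 941 and 939 CPM, and the lowest Sspo-high cells that the rule left out stood at 1022, 1039 and 1040.0. The members' median for Ccdc153 was 160 CPM, with 109 members under 200 CPM and 38 from 500 to 1000 CPM. These are the values that chose the cells and are a description only.

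**Figure D1:**
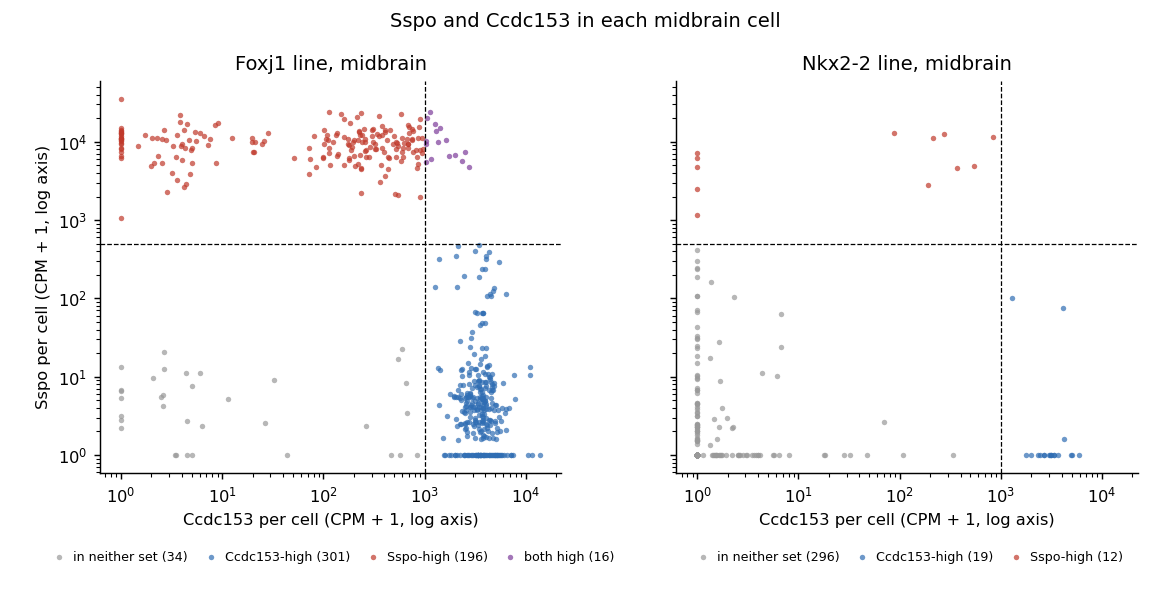
Sspo against Ccdc153 in each midbrain cell, both in CPM plus 1 on log axes, for the Foxj1 line (left) and the Nkx2-2 line (right). Dashed lines mark 500 CPM of Sspo and 1000 CPM of Ccdc153. In the Foxj1 line the 196 Sspo-high cells (red) and the 16 cells high for both genes (purple) lie above 1000 CPM of Sspo, and Ccdc153 runs on across its threshold.

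A group of 16 cells passed both thresholds, so the rule left them out of the members and they sit inside the Ccdc153-high set. Their summed levels were 11011 CPM for Sspo, 1863 for Spdef, 1802 for Wfdc2 and 3251 for Spp2. Their levels of these markers lay near those of the members. Of genes of the Ccdc153-high set, Gja1 stood at 7.62 CPM in them, Rarres2 at 183 and Clu at 643. These levels lay below the rest of that set, at 743, 2292 and 10431 CPM. They lay above the members, at 2.68, 17.4 and 341 CPM. Single cells of the 16 reached 2126 CPM of Rarres2 and 3192 of Clu. Their median depth was 648568 reads and 5012 genes per cell. These 16 of 317 cells held 95.8% of the Sspo reads of the Ccdc153-high set, 96.1% of its Spdef, 98.3% of its Npsr1, 96.9% of its Wfdc2 and 65.7% of its Car3. The ratios below use the full set of 317 cells as the rule states. Without the 16 cells, the members' Sspo was 484-fold the rest in place of 21.3-fold, Spdef 560-fold in place of 22.7-fold and Npsr1 1679-fold in place of 29.0-fold.

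The cell type label is set beside 4 other subcommissural organ markers that the rule did not name. Their levels come from the cells it chose, and the markers were chosen with earlier results of these data known. They describe the members and cannot check the label. Spdef, an ETS transcription factor of secretory epithelia, reached 10 CPM in 195 of 196 members. Wfdc2, a secreted protein with whey acidic protein domains, did so in 193, the neuropeptide S receptor Npsr1 in 189 and the carbonic anhydrase Car3 in 166. All 4 reached 10 CPM in 158 members, 3 of them in 35 and 2 of them in 3. Among the midbrain cells under 500 CPM of Sspo, 280 had none of the 4 at 10 CPM, 51 had 1, 2 had 2, 1 had 3 and 1 had 4.

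The 4 markers were then compared with the full Ccdc153-high set and the other 3 regions of the Foxj1 line. The summed level of Spdef was 1786 CPM in the members, 78.5 in the Ccdc153-high cells, 0.376 in lateral ventricle cells, 1.52 in the third ventricle sample and 0.518 in the cord. Wfdc2 stood at 1612 CPM in the members, 75.4 in the Ccdc153-high cells and at most 0.868 in the other 3 regions. Npsr1 stood at 684 CPM in the members and 23.6 in the Ccdc153-high cells, with at most 1.88 elsewhere in the Foxj1 line. For these 3 genes the members stood above the Ccdc153-high cells and the other 3 regions. Car3 was less exclusive: it stood at 726 CPM in the members, 69.6 in the Ccdc153-high cells, and between 66.7 and 79.3 in the other 3 regions. None of the 599 cells of the other regions reached 500 CPM of Sspo, which allows a share of up to 0.501% if 3 cells are taken as the limit of a count of 0, for counting error alone.

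The Nkx2-2 line shared no cells with the Foxj1 line and was not used by the rule. The same thresholds found 12 Sspo-high cells among its 327 (3.67%, 1.91 to 6.32) and 19 Ccdc153-high cells. In the 12 cells Sspo ran from 1155 to 12795 CPM with a median of 5617. The summed level of Spdef was 1421 CPM in them and 0 in the 19 Ccdc153-high cells, Wfdc2 1509.8 against 0.0492, Npsr1 565 against 3.79, and Car3 912 against 28.1. All 4 markers were high in the Sspo-high cells of this line as well, at levels near those of the Foxj1 line. The share of Sspo-high cells in each line also follows which cells each Cre labels and the dissection took, so the 2 shares are not compared.

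The whole transcriptome was then set against the Ccdc153-high cells. Of 10796 genes with at least 10 CPM in either set, 759 (7.03%) were at least 4-fold higher in the members and 798 (7.39%) at least 4-fold lower. At 2-fold the counts were 1978 (18.3%) and 1612 (14.9%). Every block of members lay above every block of Ccdc153-high cells for 799 genes (7.40%) and below for 911 (8.44%). The members were chosen on 2 genes of the same table, so these counts describe the contrast and test nothing. The median log2 ratio over all 10796 genes was 0.16. It was 0.02 with TMM scaling and -0.01 with the authors' normalized values, so a list median is read beside 0.16. Every count of list genes at 2-fold below is likewise read beside 18.3% higher and 14.9% lower over all genes.

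In the Nkx2-2 line 2070 of 10713 genes (19.3%) were at least 4-fold higher in its 12 Sspo-high cells and 1713 (16.0%) at least 4-fold lower, larger shares from far fewer cells. Of the 759 genes higher in the Foxj1 line, 608 reached 10 CPM in either set of the Nkx2-2 line, and 566 of them (93.1%) were higher there too, beside 54.5% of all genes tested in that line. Of the 798 lower genes, 631 could be compared and 591 (93.7%) were lower there too, beside 45.5% of all genes. The direction of most large differences thus recurred in another Cre line.

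**Figure D2:**
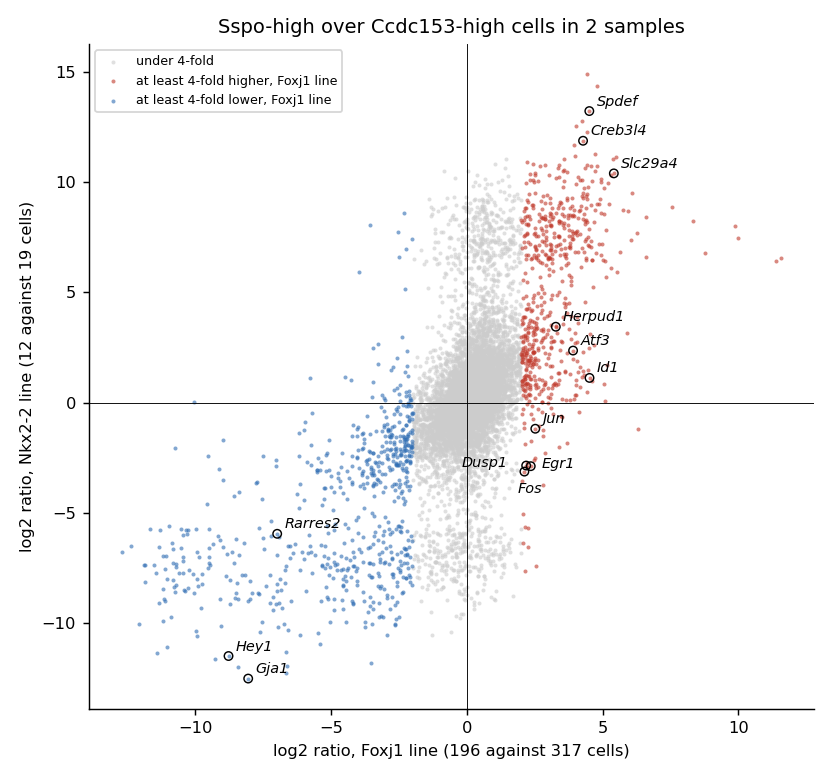
Each point is 1 gene with at least 10 CPM in either set of both lines; the x axis is its log2 ratio of Sspo-high over Ccdc153-high cells in the Foxj1 line and the y axis the same in the Nkx2-2 line. Genes at 0 reads in 1 set of a line are placed at a floor of 3 reads, which gives the outer bands. Most red and blue genes keep their sign, and Fos, Egr1, Jun and Dusp1 lie in the lower right, higher in the members in 1 line and lower in the other.

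The genes with the largest ratios are described next. The rule for naming them asked for at least 50 CPM, at least 10 CPM in 50% of member cells and no overlap between blocks. Slc29a4, a transporter of monoamines and nucleosides, led with 229 CPM [152 to 293] in the members, 5.38 [0.425 to 8.57] in the Ccdc153-high cells and at most 0.475 in the other regions. Cldn3, a tight junction claudin, followed with 281 CPM [191 to 409] against 7.76 [0.0853 to 29.3]. The kinase gene Prkcb stood at 107 CPM against 2.95, and Gria1, a subunit of AMPA glutamate receptors, at 160 CPM against 5.24. These ratios depend on the 16 cells high for both rule genes, which held 97.9% of the Slc29a4 reads and 90.2% of the Cldn3 reads of the Ccdc153-high set. Without them the members stood at 1936-fold for Slc29a4 and 356-fold for Cldn3, and at 1679-fold for Npsr1, 693-fold for Spp2 and 654-fold for Wfdc2, so the order of the leading genes changes. The second line repeated this: Slc29a4 stood at 200 CPM, Cldn3 at 147 and Gria1 at 170 in the Sspo-high cells, all at 0 in the Ccdc153-high cells, and Prkcb at 64.1 against 19.3.

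Further genes of high ratio code for secreted proteins. Spp2, a secreted phosphoprotein known from bone and liver, stood at 3802 CPM [3345 to 5568] in the members against 137 [8.41 to 316], and at most 0.358 in the other regions. Every member had a read of Spp2, and the lowest member stood at 943 CPM. Rbp4, the retinol carrier of plasma, stood at 1596 CPM [1338 to 2296] against 78.2, with 95.6 CPM in its lowest member. Spp2 and Rbp4 were thus present in every member cell. Ttr, the thyroxine carrier transthyretin, stood at 795 CPM [300 to 1393] against 37.5, but its median over member cells was only 141 CPM, with a highest cell of 12044. Ttr was spread unevenly over the members, unlike Spp2 and Rbp4.

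The other leading genes varied in kind. Thrsp, a regulator of lipid synthesis, stood at 548 CPM against 20.7, and Pygm, the muscle form of glycogen phosphorylase, at 358 against 13.6. The cadherin Cdh20 stood at 182 CPM against 7.44, the amino acid transporter Slc7a10 at 138 against 5.69 and the efflux pump Abcg2 at 164 against 6.90. Id1, an inhibitor of helix-loop-helix factors that follows BMP signals, stood at 1121 CPM against 49.0. The transcription factor gene Ferd3l stood at 170 CPM against 8.40, and Enpp2, the secreted enzyme autotaxin, at 1028 against 51.3. Among cells of the Nkx2-2 line, Thrsp, Pygm, Slc7a10, Abcg2 and Ferd3l were at 371, 213, 105, 170 and 238 CPM in the Sspo-high cells and at most 0.0984 in the Ccdc153-high cells. Id1 and Enpp2 differed less there, at 70.9 against 32.6 CPM and 998 against 418 CPM.

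**Figure D3:**
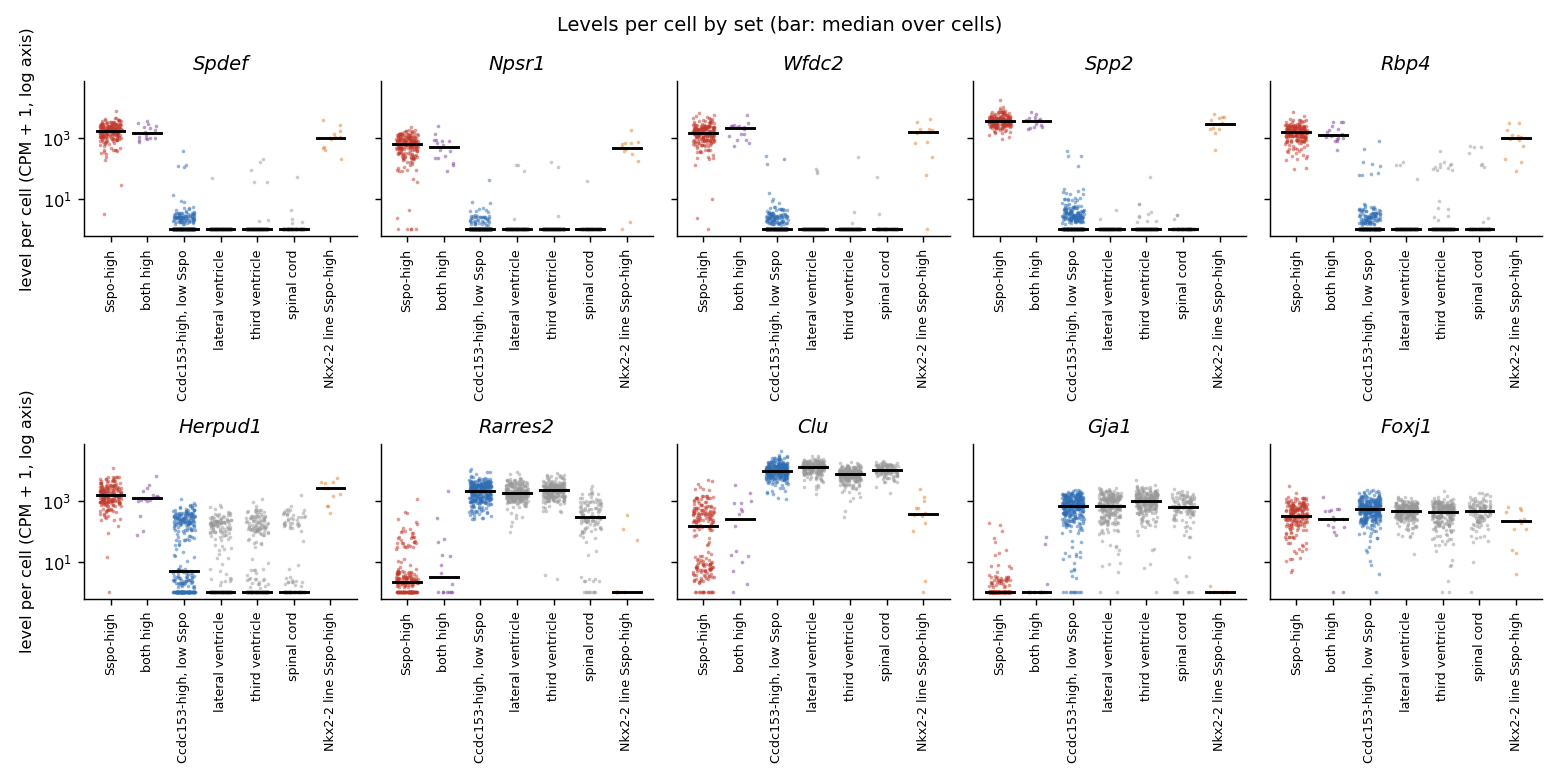
Level per cell in CPM plus 1 (log axis) of 10 genes; each point is 1 cell and the bar is the median over cells. Spdef, Npsr1, Wfdc2, Spp2 and Rbp4 are high in the 196 members, the 16 cells high for both rule genes and the 12 Sspo-high cells of the Nkx2-2 line, and with medians at 0 in the other sets. Rarres2, Clu and Gja1 show the opposite order, and Foxj1 is present in all sets.

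The endoplasmic reticulum (ER) folds and glycosylates secreted proteins, and the unfolded protein response raises its capacity. In this response IRE1 (Ern1) splices the message of Xbp1, PERK acts through Atf4 and Ddit3, and ATF6 is cut into a transcription factor. CREB3-family factors such as Creb3l4 and Creb3l2 are cut in the same way. Of 19 genes of the response with at least 10 CPM, 10 were at least 2-fold higher in the members and 1 lower, with a median log2 ratio of 1.26. Creb3l4 led with 766 CPM [619 to 1111] against 39.5 [2.38 to 109], and Creb3l2 stood at 79.7 CPM against 12.5. Xbp1 stood at 489 CPM [297 to 864] in the members against 104 [82.6 to 126], with 113 in the spinal cord as its highest level in another region. Ddit3 stood at 270 CPM against 28.5, Wfs1, an ER membrane protein, at 182 against 38.9, and the signalling kinase IRE1 gene Ern1 at 14.6 against 1.76. Creb3l1 was the lower gene, at 24.1 CPM against 51.3. The median of the same list was 0.90 in the Nkx2-2 line. There Creb3l4 stood at 558 CPM against 0 and Xbp1 at 777 against 147, while Ddit3 stood at 235 against 126 and Atf4 at 285 against 266.

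Chaperones and disulfide enzymes were higher by a smaller margin. Of 40 tested genes 16 were at least 2-fold higher and 1 lower, with a median log2 ratio of 0.83. Hspa5, the ER chaperone BiP, stood at 3066 CPM [2040.4 to 4996] against 1367 [868 to 1948], a 2.24-fold ratio with no overlap between blocks. Pdia3, a disulfide isomerase that works on glycoproteins, stood at 1874 CPM against 780, and Canx, the lectin chaperone calnexin, at 826 CPM against 350, with overlapping blocks. Ero1lb, an oxidase that feeds the disulfide enzymes, had the largest ratio, 194 CPM [118 to 350] against 14.2 [5.58 to 25.9]. Txndc11 stood at 79.8 CPM against 9.36 and the BiP cofactors Sil1 and Dnajb9 at 304 against 101 and 248 against 76.9. Hspa5, Pdia3 and Canx were named for their role after their values had been seen. Hspa5 in the Nkx2-2 line stood at 4389.9 CPM against 1504 and the list median was 1.17.

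Degradation and translocation genes differed less as groups. Of 22 ER-associated degradation genes 4 were at least 2-fold higher and 1 lower, with a median of 0.27, both near the values of all genes. Herpud1, which brings substrates to the degradation complex, was an exception at 1910.5 CPM [1567 to 3294] against 198 [115 to 406]. Its level was between 87.5 and 118 CPM in the other regions, and 2519.7 against 231 in the Nkx2-2 line. Edem2, a mannosidase that marks glycoproteins for degradation, was the lower gene, at 49.4 CPM against 100. Of 23 translocation genes 3 were at least 2-fold higher and none lower, with a median of 0.30. Srpr, the signal recognition particle receptor, stood at 176 CPM against 30.6, but its gene model overlaps Tirap, Foxred1 and Fam118b on the other strand.

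Promoter letters are shown because 3 DNA motifs of the unfolded protein response are known and some of the genes above carry them. The 250 bases before the start of each gene were taken from RefSeq on GRCm38.p6 and searched on both strands. The ER stress response element was searched as CCAAT, 9 bases of any kind and CCACG, its second form as ATTGG, 1 base of any kind and CCACG, and the unfolded protein response element as TGACGTGG. The first was in 37 of 32851 promoters (0.113%), the second in 10 (0.0304%) and the third in 185 (0.563%). Of 89 genes of the ER folding, translocation, stress and degradation lists with a promoter, 10 held the first (11.2%), 1 the second (1.12%) and 3 the third (3.37%). Below are the promoters of Sspo at chr6:48447924-48448173 (plus strand), Hspa5 at chr2:34771840-34772089 (plus), Canx at chr11:50325674-50325923 (minus), Ero1b, named Ero1lb in the count table, at chr13:12565633-12565882 (plus) and Herpud1 at chr8:94386179-94386428 (plus), each 5′ to 3′ along its gene with the motif in capitals.
Sspo: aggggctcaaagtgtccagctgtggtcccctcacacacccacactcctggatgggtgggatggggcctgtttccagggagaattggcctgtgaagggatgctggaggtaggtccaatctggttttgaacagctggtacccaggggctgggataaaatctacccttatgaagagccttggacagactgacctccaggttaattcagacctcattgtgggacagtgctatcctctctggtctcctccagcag
Hspa5: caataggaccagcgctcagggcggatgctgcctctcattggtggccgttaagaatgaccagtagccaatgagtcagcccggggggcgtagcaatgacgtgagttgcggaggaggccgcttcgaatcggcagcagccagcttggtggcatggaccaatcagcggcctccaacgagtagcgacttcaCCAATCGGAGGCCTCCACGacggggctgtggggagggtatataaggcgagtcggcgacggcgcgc
Canx: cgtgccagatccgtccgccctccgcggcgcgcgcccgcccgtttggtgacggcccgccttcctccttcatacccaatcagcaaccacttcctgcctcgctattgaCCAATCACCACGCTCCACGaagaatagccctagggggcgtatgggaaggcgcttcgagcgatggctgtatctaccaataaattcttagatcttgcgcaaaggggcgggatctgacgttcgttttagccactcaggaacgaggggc
Ero1b: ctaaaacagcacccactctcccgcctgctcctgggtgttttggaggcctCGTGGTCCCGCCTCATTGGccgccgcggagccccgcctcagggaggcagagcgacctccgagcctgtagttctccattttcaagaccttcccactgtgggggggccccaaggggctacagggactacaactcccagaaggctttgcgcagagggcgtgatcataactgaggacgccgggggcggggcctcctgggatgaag
Herpud1: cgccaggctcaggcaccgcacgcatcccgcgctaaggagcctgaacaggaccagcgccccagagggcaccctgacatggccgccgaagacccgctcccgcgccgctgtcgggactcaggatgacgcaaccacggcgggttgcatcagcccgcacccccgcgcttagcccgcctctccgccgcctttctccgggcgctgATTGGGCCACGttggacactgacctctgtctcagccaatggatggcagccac

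The first base of the motif lay 65 bases before the gene start in Hspa5, 145 in Canx, 201 in Ero1b, where it reads on the reverse strand, and 52 in Herpud1, which carries the second form. The window of Sspo held none of the 3 motifs. Of 13 tested genes with the first motif, 12 had a log2 ratio above 0, 8 were at least 2-fold higher and none lower, with a median of 1.17, beside 0.17 for the 8411 tested genes with a promoter. Among them the chaperone Hsp90b1 stood at 1365 CPM against 777 with overlapping blocks, and Derl3, of the degradation complex, at 59.2 against 20.1. Dnajc3 was the gene below 0, at 509 CPM against 548. The 10 ER list genes with this motif are among the 13, so the set largely repeats the list results above. The rest were Acacb, Alg12 and Pan2, with log2 ratios of 1.27, 1.31 and 1.19. In the Nkx2-2 line these stood at 8.33, -0.61 and -0.63. The 84 tested genes with the unfolded protein response element had a median of 0.28, with 20 at least 2-fold higher and 12 lower. A match of letters is a description of these windows and shows no binding.

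**Figure D4:**
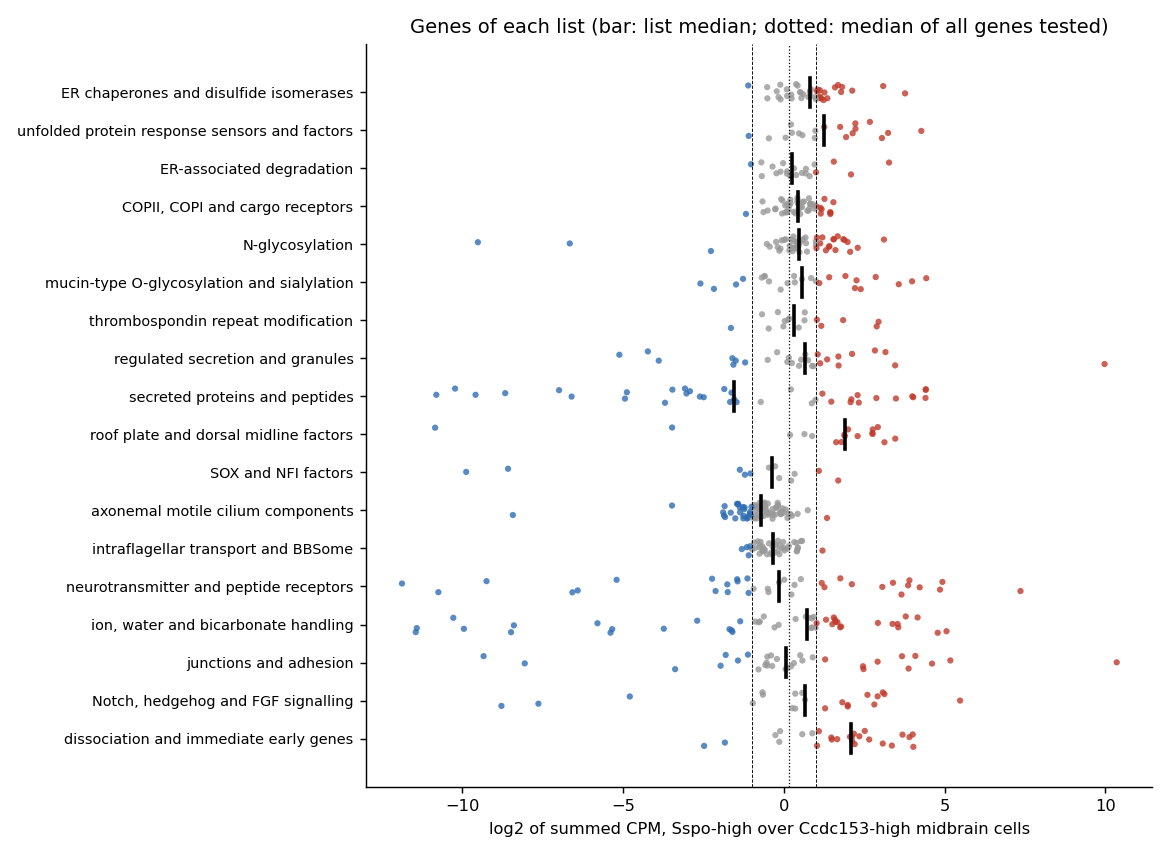
Log2 ratio of summed CPM, Sspo-high over Ccdc153-high midbrain cells, for the tested genes of 18 lists; each point is a gene, the bar is the list's median, the dotted line the median of all genes tested and the dashed lines 2-fold. The medians of the unfolded protein response (1.26), roof plate (1.90) and immediate early (2.09) lists lie to the right, and those of secreted proteins (-1.54) and axonemal genes (-0.70) to the left.

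Lists of transport from the ER to the Golgi and of the Golgi matrix held shares of 2-fold higher genes near the 18.3% of all genes. Of 48 genes of COPII and COPI coats and cargo receptors, 9 were at least 2-fold higher and 1 lower, with a median of 0.45, and none passed 4-fold. Kdelr3, a receptor that returns ER proteins from the Golgi, stood at 307 CPM [254 to 480] against 112 [80.1 to 170], and Preb, which starts COPII coats, at 293 against 101. Ergic1 stood at 97.3 CPM against 35.6, but it overlaps Dusp1, which is abundant here, on the opposite strand. Sec24d, a COPII cargo adaptor, was the lower gene, at 62.0 CPM against 140. Of 33 Golgi genes 6 were at least 2-fold higher and 2 lower, with a median of 0.55. Cog7, a subunit of the conserved oligomeric Golgi complex, stood at 757 CPM [694 to 820] against 194 [122 to 262].

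Thrombospondin repeats carry C-linked mannose on tryptophan, added by the Dpy19l enzymes, and O-linked fucose, added by Pofut2 and extended by B3glct. SCO-spondin has many such repeats. Dpy19l3 stood at 1124 CPM [294 to 1646] in the members, 146 [33.4 to 208] in the Ccdc153-high cells, and 138 or less in the other regions. Every member reached 10 CPM of Dpy19l3, and the lowest stood at 27.0. Dpy19l1 stood at 367 CPM against 49.5, so for both enzymes all blocks of members lay above all blocks of Ccdc153-high cells. Their relatives Dpy19l2 and Dpy19l4 were near equal, at 103 against 91.5 CPM and 20.8 against 18.9. Pofut2 was equal, at 306 CPM against 309, and B3glct stood at 31.3 against 8.70 with overlapping blocks. Gmds, which makes the fucose donor, was lower, at 23.1 CPM against 72.0. In all 5 of the 16 genes of this list were at least 2-fold higher and 1 lower. The list median was 0.32, and only 0.05 in the Nkx2-2 line. Dpy19l3 stood at 890 CPM against 102 and Dpy19l1 at 309 against 64.1 in the Nkx2-2 line.

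N-glycans are added in the ER and trimmed and extended in the Golgi. Of 52 genes of this pathway 17 were at least 2-fold higher and 3 lower, with a median of 0.47 and 1.11 in the Nkx2-2 line. Uap1, which makes UDP-N-acetylglucosamine, stood at 86.3 CPM against 9.95, Alg2, an early mannosyltransferase, at 282 against 67.4, and Gmppb, which makes GDP-mannose, at 78.4 against 21.2. St6gal1, which adds sialic acid in the alpha 2-6 linkage, was an exception, at 1.16 CPM [0 to 7.04] in the members against 117 [23.6 to 149], and between 99.9 and 153 in the other regions. The mannosidase Man1a was also near 0, at 0.0183 CPM against 13.4. St6gal1 in the Nkx2-2 line was at 0 in the Sspo-high cells and 36.2 CPM in the Ccdc153-high cells.

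Mucin-type glycans start with a GalNAc transferase and often end in sialic acid. Of 25 genes of this list 10 were at least 2-fold higher and 4 lower, with a median of 0.57, and only 0.14 in the Nkx2-2 line. Galnt12, a GalNAc transferase, stood at 80.2 CPM [50.1 to 116] against 3.72 [0.0212 to 11.7], while Galnt16 stood at 47.4 against 76.1. Gne and Nans, which make sialic acid, stood at 173 CPM against 33.0 and 52.2 against 10.9, and St3gal1, which adds it in the alpha 2-3 linkage, at 34.7 against 4.78. St3gal6, with the same linkage, stood at 240 CPM against 363, within 2-fold. Among sialyltransferases St6gal1 was thus near 0 in the members and St3gal1 higher.

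Genes of regulated secretion went both ways. Of 29 tested genes 10 were at least 2-fold higher, 7 lower and 12 within 2-fold, with a median of 0.66. The small GTPase gene Rab27b stood at 27.5 CPM [10.9 to 50.4] in the members against 0.0274 [0 to 0.185], and Rab27a at 25.7 against 2.33 with blocks that overlapped at 0. Rab3d, a GTPase of secretory granules, stood at 70.9 CPM against 9.93, Vamp2, a granule SNARE, at 205 against 62.8, and Pam, which amidates peptides, at 223 against 51.0. The prohormone convertase gene Pcsk2 was low, at 2.35 CPM [1.06 to 5.11] against 81.2 [51.4 to 115], as were Scg3, at 101 against 299, and Cpe, at 954 against 2193. Rab27a and Rab27b were named after their values had been seen. Rab27b stood at 26.4 CPM against 0 and Pcsk2 at 1.47 against 89.7 in the Nkx2-2 line.

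Secreted proteins as a list went both ways, with 13 of 37 tested genes at least 2-fold higher and 20 lower. Beside Sspo, Wfdc2 and Ttr, the higher genes included Igfbp6, a binding protein of insulin-like growth factors, at 643 CPM [450 to 1202] against 39.4, and 0.152 or less in the other regions. Cst3, the protease inhibitor cystatin C, stood at 5548 CPM [4895 to 7513] against 1129 [849 to 1442], and Slit2, a guidance cue, at 321 against 43.7 with overlapping blocks. Among the lower genes Clu, the chaperone clusterin, stood at 341 CPM [157 to 743] against 10035 [7033 to 12633]. Apoe, a lipid carrier, stood at 166 CPM [130 to 196] against 5082 [4125 to 7005], and Rarres2, the chemoattractant chemerin, at 17.4 [5.53 to 30.2] against 2207 [1731 to 2867]. Rarres2 overlaps Lrrc61 on the other strand. Sparc and Sparcl1, 2 matricellular proteins, stood at 92.9 CPM against 1201 and 240 against 2640.3. Clu, Apoe, Sparc and Sparcl1 were also low in the Sspo-high cells of the Nkx2-2 line, at 595, 145, 120 and 293 CPM, against 9982, 4207, 1226 and 3883 in its Ccdc153-high cells. Receptors and partners linked to SCO-spondin also went both ways, with a list median of -0.25. Of 8 tested genes 2 were at least 4-fold higher, 1 of them the rule gene Sspo itself, and 3 at least 4-fold lower. Over all genes these shares were 7.03% and 7.39%.

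The subcommissural organ arises from the roof plate, the dorsal midline of the neural tube, which is patterned by BMP and Wnt signals and by Msx, Zic, Lmx and Pax factors. Of 17 tested roof plate genes 12 were at least 2-fold higher in the members and 2 lower, with a median log2 ratio of 1.90. The median was 1.72 in the Nkx2-2 line. Pax6, a factor needed for the organ to form, stood at 325 CPM [226 to 420] against 29.4 [7.59 to 49.1], and at 132 CPM in the spinal cord, the highest of the other regions. Msx1 stood at 913 CPM [817 to 1081] against 295 [213 to 372], with 238 CPM in lateral ventricle cells and 33.3 in the cord. Both genes were highest in the members, without overlap between blocks. Zic4 stood at 449 CPM against 66.2 and its neighbour Zic1 at 64.2 against 9.42, though their gene models overlap. Lmx1b stood at 87.2 CPM against 12.9 and Lmx1a at 17.3 against 4.65. Hes1, a Notch effector and roof plate gene, stood at 744 CPM against 85.0. The lower genes were the ligands Wnt4, at 0.0245 CPM against 44.8, and Wnt5a, at 4.18 against 46.4. Lmx1b in the Nkx2-2 line was the exception, at 11.8 CPM against 11.4.

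Other position factors placed the members apart from the Ccdc153-high cells in both directions. Otx1 and Otx2, factors of the forebrain and midbrain, stood at 219 CPM against 59.4 and 315 against 127. Meis1 stood at 86.1 CPM against 36.9, while its relative Meis2 was at 0.0306 against 28.9. Nkx6.1, a ventral factor, stood at 0.0183 CPM [0 to 0.111] against 47.0 [24.0 to 60.6], and Cnpy1, a gene of the midbrain and hindbrain boundary, at 0.0245 against 49.2. In all 4 of 13 position factors were at least 2-fold higher and 3 lower.

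Sox9 and the NFI factors, which the series concerned, were expressed in the members. Sox9 stood at 1462 CPM [1044 to 1902] in the members, 1247 [1077 to 1552] in the Ccdc153-high cells, 1480.3 in lateral ventricle cells, 1296 in the third ventricle sample and 1066 in the cord. Its blocks overlapped, and every cell of the midbrain sets had a read of it. Nfia stood at 210 CPM [123 to 379] against 253 [163 to 517], Nfib at 124 against 97.9 and Nfic at 72.8 against 100, all with overlapping blocks. Nfix differed: it stood at 436 CPM [302 to 602] against 135 [98.9 to 204], and between 110 and 193 in the other regions. Nfix was also higher in the Nkx2-2 line, at 276 CPM against 89.7. Other SOX genes went both ways, with Sox13 at 32.8 CPM against 15.4 with overlapping blocks, Sox1 at 0.0673 CPM against 25.6, Sox21 at 0.0122 against 11.5 and Sox2 at 23.5 against 48.1. Of 12 tested SOX and NFI genes 2 were at least 2-fold higher and 5 lower.

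Motile cilia genes were lower in the members as a group but far from absent. Of 79 tested axonemal genes 25 were at least 2-fold lower and 1 higher, with a median of -0.70 in both lines. For 23 of the 79 every block of members lay below every block of Ccdc153-high cells, beside 8.44% of all genes. Foxj1, the master regulator of motile cilia and the driver of the Cre, stood at 417 CPM [230 to 767] against 590 [427 to 819], and 98.5% of member cells reached 10 CPM. Both sets were sorted on a reporter that depends on the Foxj1 promoter, and the part of this sorting in the Foxj1 share was not tested. Rsph1, a radial spoke gene, stood at 1389 CPM [1164 to 2119] against 2137 [1830.3 to 2708], and Cfap126 was near equal at 1106 against 1199. The strongest exceptions were the dynein heavy chain Dnah3, at 0.563 CPM [0.0664 to 1.84] against 193 [89.5 to 276], and Stoml3, at 73.5 [39.6 to 110] against 817 [670 to 988]. Tekt2, a tektin, was the higher gene, at 141 CPM against 55.5. Of 45 intraflagellar transport and BBSome genes 4 were at least 2-fold lower and 1 higher. Of 14 regulators 4 were lower and 2 higher, with Myb at 11.8 CPM against 159.

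Beyond the cilium, the genes lowest in the members relative to the Ccdc153-high cells were near 0 in them. The naming rule mirrored the one for higher genes. Car9, a membrane carbonic anhydrase, stood at 0.0917 CPM [0.0355 to 0.226] in the members against 250 [167 to 283], and at 183 CPM in lateral ventricle cells and 19.5 in the cord. Hey1, a Notch target, stood at 0.330 CPM against 145, and Traf1, a signalling adaptor, at 0.135 against 315. Gja1, the gap junction protein connexin 43, stood at 2.68 CPM [0.133 to 5.77] against 713 [200 to 1056]. Scnn1a, a sodium channel subunit, stood at 0.361 CPM against 129, and the potassium channel Kcnj10 at 1.16 against 390. In the Nkx2-2 line Car9 and Scnn1a were at 0 in the Sspo-high cells and at 550 and 60.8 CPM in the Ccdc153-high cells. Gja1 and Hey1 were each at 0.0698 CPM there against 410 and 202.

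Receptors went both ways, with 13 of 35 tested genes at least 2-fold higher and 14 lower. The dopamine receptor gene Drd1 stood at 233 CPM [59.3 to 365] in the members against 12.4 [0 to 40.4], and at most 0.500 in the other regions. In single cells Drd1 ran from 0 to 1195 CPM with a median of 205. In the Nkx2-2 line Drd1 stood at 163 CPM against 0. The prostaglandin receptor gene Ptger4 stood at 59.4 CPM against 4.70. Ednra, the endothelin receptor, was at 0.0306 CPM against 52.3, the adenosine receptor Adora1 at 1.39 against 50.9, and Ramp1, a co-receptor for calcitonin gene-related peptide, at 304 against 1026. Each of these 3 lower receptors was lower in the Nkx2-2 line as well, at 0, 5.59 and 225 CPM against 79.8, 48.6 and 1220.4.

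Ion, water and junction genes also went both ways. Of 46 ion, water and bicarbonate genes 17 were at least 2-fold higher and 15 lower. Aqp4, the water channel of glia, stood at 10.6 CPM against 428. Kcnj13, a potassium channel of transporting epithelia, stood at 79.9 CPM [48.8 to 109] against 6.87 [0.225 to 34.6], and Itpr3, a calcium release channel, at 53.5 against 2.99. Of 32 junction genes 10 were at least 2-fold higher and 7 lower. The claudins Cldn3 and Cldn1 stood at 281 CPM against 7.76 and 62.5 against 4.89, and the cadherins Cdh11 and Cdh8 at 306 against 18.0 and 126 against 8.53. Epcam had 0 reads in the members, at most the level of 3 reads, against 11.8 CPM. These are single genes of lists that went both ways.

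Among Notch and FGF genes, related members differed in opposite directions. Of 21 Notch, hedgehog and FGF genes 10 were at least 2-fold higher and 3 lower. Hes1 and the receptor Notch2 stood at 744 CPM against 85.0 and 277 against 45.6, while Hey1 was at 0.330 against 145. Fgfr4 stood at 69.0 CPM [59.7 to 95.8] against 1.54 [0.0284 to 6.65], and its relative Fgfr3 at 0.373 against 73.8. The FGF receptor pattern recurred in the Nkx2-2 line, with Fgfr4 at 113 CPM against 0.0492 and Fgfr3 at 0.0698 CPM in the Sspo-high cells. Prom1, a membrane protein of neural progenitors, stood at 451 CPM against 37.3, while S100b and Krt8 were at 37.0 against 903 and 0.611 against 92.9.

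**Figure D5:**
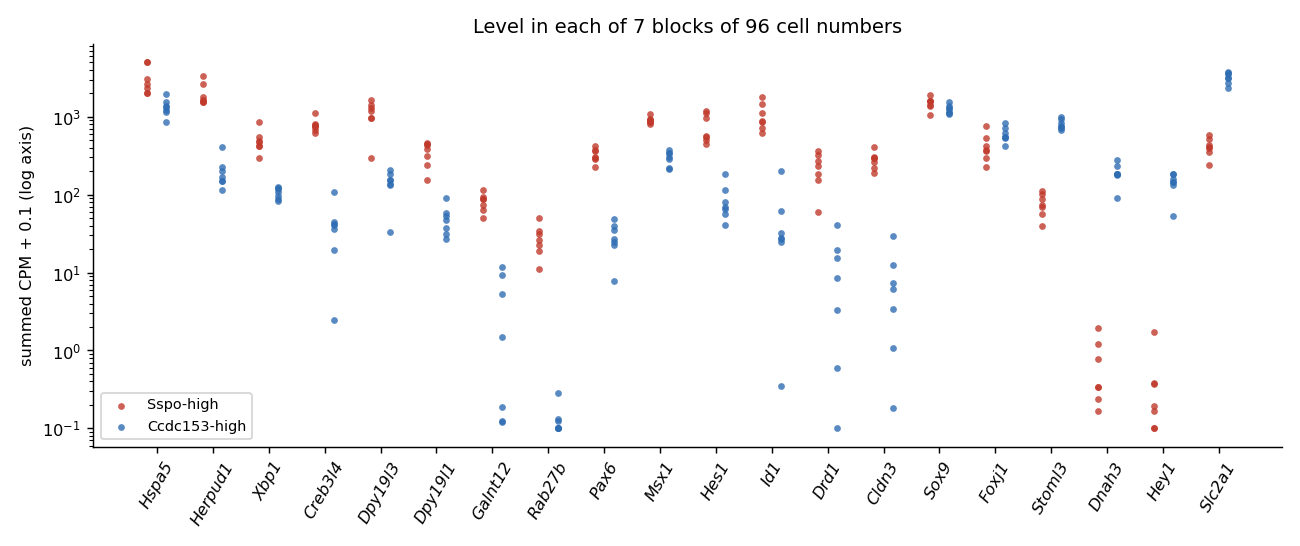
Summed CPM plus 0.1 (log axis) of 20 genes in each of 7 blocks of 96 cell numbers, for Sspo-high (red) and Ccdc153-high (blue) midbrain cells. The colours overlap for Sox9 and Foxj1 and for none of the other genes drawn.

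Among metabolic genes, those of glycolysis and the respiratory chain differed little as a group, while lipid genes were lower. Of 48 glycolysis and respiratory chain genes 6 were at least 2-fold higher and 6 lower, with a median of 0.07. Slc2a1, the glucose transporter GLUT1, stood at 402 CPM [243 to 581] against 3194 [2353 to 3699] and at no less than 1922 in the other regions. Ldha, which makes lactate, stood at 436 CPM [387 to 609] against 112 [92.3 to 138], and Pkm, pyruvate kinase, at 1552 against 647. The transporter gene was thus lower and the lactate gene higher, without overlap between blocks. Of 29 lipid genes 8 were at least 2-fold lower and 1 higher, with a median of -0.41. Acsl3 stood at 22.5 CPM against 118 and Scd2 at 204 against 948. Among 42 amino acid transporter and tRNA ligase genes 11 were at least 2-fold higher and 8 lower, with Slc38a3 at 28.7 CPM against 713 and Slc7a10 the other way, as given above.

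Immediate early genes respond within minutes to stimulation and also to cell dissociation. They were the list with the highest median in the Foxj1 line, 2.09, with 19 of 26 genes at least 2-fold higher and 2 lower. Fos stood at 10943 CPM [8229 to 12789] in the members, 2523 [1968 to 4176] in the Ccdc153-high cells, and 788 in lateral ventricle cells, 1498 in the third ventricle sample and 3485 in the cord. In the Nkx2-2 line Fos stood at 511 CPM in the Sspo-high cells against 4469 in the Ccdc153-high cells, the opposite order. Egr1 stood at 4489 CPM against 880 in the Foxj1 line and 186 against 1371 in the Nkx2-2 line, Jun at 2351 against 410 and 115 against 261, and Dusp1 at 3258 against 718 and 320 against 2313. Atf3, a stress factor of the same list, kept its direction, at 4506 CPM against 300 and 3320.1 against 645. The list median in the Nkx2-2 line was 0.17. The part of dissociation or sorting in these levels was not tested. Blocks 6 and 7 of the members carry the same sequencing project number as the Nkx2-2 line, and Fos stood at 12368 and 12789 CPM in them. Line, animals and day of preparation cannot be told apart.

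Markers of other cell types went both ways. Of 17 multiciliated ependymal markers none was at least 2-fold higher and 8 were lower, and their summed level was 6298 CPM against 18506 in the Ccdc153-high cells. This list holds the rule gene Ccdc153, at 235 CPM against 3583, so the rule itself set part of the count and of the sum. Of 13 tested astrocyte markers 3 were higher and 5 lower. Gja1 and Fgfr3 were near 0 in the members and Aqp4 stood at 10.6 CPM against 428. Aldoc went the other way, at 143 CPM against 56.2, as did Slc1a2, at 137 against 59.7. Of 6 tested choroid plexus markers Ttr, Kcnj13 and Otx2 were higher, while Folr1 was at 232 CPM against 501 and Clic6 at 0.0306 against 37.9, so these markers did not move together. Of small lists, both tested oligodendrocyte precursor markers were higher (C1ql1 at 11.9 CPM against 0.0274, Olig1 at 11.6 against 0.195). The tanycyte markers Rax and Col23a1 were higher, at 11.3 against 0.461 and 28.8 against 5.74, and Scn7a lower, at 0.116 against 64.3. The progenitor marker Egfr stood at 15.4 CPM against 0.117 and the pinealocyte marker Rom1 at 67.3 against 10.8. Choroid plexus markers summed to 2243 CPM against 1636. The part of these markers in the results was not tested. No neuronal marker was tested, since none reached 10 CPM in either set, and the 8 in the table summed to 20.9 CPM against 19.3. Oligodendrocyte markers summed to 398 CPM against 801, with Mal at 242 against 19.3. The same markers summed to 5436 CPM in the Sspo-high cells of the Nkx2-2 line, far above the 398 CPM of the members. Mal in that line stood at 577 CPM in the Sspo-high cells and 532 in the Ccdc153-high cells. The part of oligodendrocyte message in the values of that line was not tested.

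The 2 midbrain sets differed in the share of cells with a read of Xist, a gene expressed in female cells. A read of Xist was found in 49.5% of members (42.3 to 56.7) and 27.1% of Ccdc153-high cells (22.3 to 32.4), and a read of 1 of 4 Y-linked genes in 30.1% (23.8 to 37.0) and 37.2% (31.9 to 42.8). The intervals of the Y-linked shares overlapped. In the Nkx2-2 line, all from females, Xist was read in 83.3% of Sspo-high and 68.4% of Ccdc153-high cells. A missing read thus does not give the sex of a cell, and a difference in sex was not tested. Over cells with a read of Xist and none of the Y genes, 94 members against 80 Ccdc153-high cells, 806 genes were at least 4-fold higher and 846 lower. They held 558 of the 759 higher genes over all cells (73.5%) and 665 of the 798 lower genes (83.3%). Over cells with a Y-linked read and none of Xist, 56 against 112, the counts were 933 and 990, with 609 (80.2%) and 666 (83.5%) of the same genes. This alternative was chosen after the data were seen.

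The spread between member cells is given as the coefficient of variation over the 196 cells. For Sspo it was 0.472, a description only, since the rule set a floor of 500 CPM on this gene. It was 0.468 for Spp2, with Spdef at 0.559, Npsr1 at 0.640 and Wfdc2 at 0.644. Car3 (1.31) and Ttr (2.17) varied far more between cells. Members made up 25.4% to 45.8% of the midbrain cells of a block, 18 to 38 cells. Spdef was steady over blocks, from 1641 to 1869 CPM, while Sspo ran from 4941 to 14528 and Hspa5 from 2040.4 to 4996. The 2 blocks highest for Hspa5, with 4996 and 4975 CPM, were those with the fewest Xist reads in the first sequencing project, at 0 and 36.9 CPM. The sixth block, of the second project, did not follow this, with 27.1 CPM of Xist and 3059.6 of Hspa5. Animals and plates cannot be told apart in these blocks.

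The genes whose level was most like that of Sspo over the 196 members were Nsg2 (Spearman rho 0.48), Gfra1 (0.47), Slc5a3 (0.45), Sntb1 (0.42), Helz (0.41), Diras2 (0.41), Dpy19l1 (0.39), Cdh11 (0.37), Ildr2 (0.35) and Eif4g2 (0.35). The cells share plates, so these values carry no p. Nsg2, a protein of endosomes, stood at 624 CPM in the members against 90.8, and Gfra1, a co-receptor of GDNF, at 986 against 80.8. Slc5a3 lies inside Mrps6 on the same strand, so reads of the pair cannot be told apart. Within single blocks the median rho of the 10 genes lay between 0.18 and 0.32, lower than over all cells. All 10 genes, and Sspo, had their lowest level in the same block, the sixth, of 18 cells. That block was the lowest for 27.5% of 2966 genes present in the members. The 10 genes were picked for their likeness to Sspo over all blocks, so a shared lowest block follows in part from that choice.

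The sixth block also differed by transcript length. The longest annotated transcript of Sspo has 15571 bases, and those of the 10 genes run from 2239 to 13147, beside a median of 2640.0 over 2803 genes present in the members. Among the 25% of these genes with the longest transcripts, the sixth block stood at a median log2 of -0.71 against the mean of the other blocks, and among the 25% with the shortest at 0.39. The Ccdc153-high cells of that block showed the same, at -0.60 and 0.41, so both sets shared it. Over the 2803 genes, rho with Sspo and transcript length had a rank correlation of 0.53. Leaving out the sixth block gave a rho of 0.42 for Nsg2, 0.38 for Gfra1 and 0.21 for Eif4g2. Without that block 763 genes were at least 4-fold higher and 807 lower, and held 709 and 766 of the genes called over all blocks. By transcript length class the contrast over all blocks had a median log2 of 0.44 for the longest and 0.18 for the shortest. The part of transcript length in the contrast was not tested beyond these values.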

How the data were processed

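The authors deposited raw read counts per gene and cell for 16347 genes, and a second table whose values are log2 of the count over a size factor plus 1. Alignment used STAR 2.3.1o to mm10 with Seurat 3, per the submitters' processing notes; the counter, annotation and strand setting are not given in the sources used here. The raw counts were used for all main values, and the deposited log2 values only as an alternative. Reads were summed over the cells of a set and scaled to CPM. A gene was tested with at least 10 CPM in either set and called at 4-fold or 2-fold. With 1 sample per group no statistical test was run. Intervals are exact Poisson (levels) and Clopper-Pearson (shares) at 95%, and cover counting error only, since reads copied by PCR do not each stand for a molecule. A level of 0 was placed at 3 reads over the set for ratios. A block is a run of 96 cell numbers, used where it held 10 or more cells of a set. The code for ratios and calls was run on simulated counts with known changes. These counts held Poisson noise only, with no spread between cells, so the run checked the code and not the calls.

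Genes were named by a rule: the markers, the 25 highest and 25 lowest ratios (at least 50 CPM, at least 10 CPM in 50% of cells, blocks apart), the 15 most abundant, up to 6 per list with central members added, the 10 most like Sspo and the 10 highest over other regions. The cell members and all lists were chosen with earlier results of these data known. No doublet caller was run; the alternative without the 2% of cells with most genes stands in its place. Coordinates came from GENCODE vM21 for 15996 genes, and 351 had none. Scripts used python 3.11.15, numpy 2.4.6, pandas 2.3.3, scipy 1.17.1, matplotlib 3.10.9 and edgeR 4.0.16 (TMM factors only). Alternatives covered scaling, filters, thresholds, reference cells (also without the 16 cells high for both rule genes), project, sex and blocks. Some genes of the lists are not reported here.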

Additional observations from a re-analysis of the deposited data

Results flagged for a closer look

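For the immediate early genes Jun, Egr1 and Fos the log2 ratio of Sspo-high over Ccdc153-high cells had opposite signs in the 2 lines. Jun was at 2.52 in the Foxj1 line and -1.18 in the Nkx2-2 line. Egr1 was at 2.35 and -2.88, and Fos at 2.12 and -3.13. They were 3 of 173 genes that the naming rule gave, that reached 50 CPM in either set of both lines and that passed 2-fold in the first line. Below that minimum in the Nkx2-2 line, Klf2 (2.21 and -2.93) and Slc35c2 (1.03 and -4.09) also had opposite signs past 2-fold. So did Dusp1, which the rule did not name (2.18 and -2.85). Each line had 1 sample, so the difference was not tested.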

How the results depend on the processing

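No paired analysis was possible because each group has 1 sample. No list median or named gene that was at least 2-fold from equal changed sign under any alternative, but medians nearer 0 did, for position factors, SOX and NFI, multiciliogenesis, receptors, junctions, ETS and FOX, and glycolysis. In all 570 list medians stayed within the spread over blocks and 74 moved, and for named genes 4739 stayed and 206 moved. The members numbered 109 with a Ccdc153 ceiling of 200 CPM. Without a filter 1432 genes were at least 4-fold higher and 1933 lower, and with at least 50 CPM the counts were 299 and 352, since other numbers of genes were tested. Without the 16 cells high for both rule genes 34 named genes moved. The share of higher calls was 48.7%, with a range of 42.2% to 53.4%. For the moved medians the cause was not tested.
Under TMM factors the medians were 0.32 for COPII and COPI, 0.35 for N-glycosylation, -0.83 for axonemal genes, -0.47 for intraflagellar transport and -0.07 for glycolysis. Under the authors' normalized values they were 0.04 for ER translocation, 0.64 for chaperones, 1.53 for the unfolded protein response, 0.32 for COPII and COPI, 0.35 for N-glycosylation, -0.42 for position factors, -0.85 for axonemal genes, -0.51 for intraflagellar transport, 1.77 for immediate early genes, -0.17 for glycolysis and -0.70 for lipids.
With at least 50 CPM the medians were 1.75 for the unfolded protein response, 0.64 for N-glycosylation, 1.26 for position factors, 0.23 for SOX and NFI, -0.58 for multiciliogenesis, -1.74 for receptors, 0.04 for ion handling, 0.55 for junctions, 0.97 for Notch, 2.06 for ETS and FOX, and -0.84 for lipids. With no filter they were -0.73 for secreted proteins, -0.87 for position factors, -0.40 for multiciliogenesis, 0.18 for ion handling, -0.33 for junctions and 0.31 for Notch.
With cells holding Y-linked reads only (chosen after seeing the data) the medians were 1.75 for the unfolded protein response, 0.63 for N-glycosylation, -0.82 for secreted proteins, -0.36 for position factors, -0.06 for SOX and NFI, and 0.13 for ion handling. With cells holding Xist reads only they were 0.11 for degradation, 0.33 for COPII and COPI, 0.27 for Golgi, -0.95 for SCO-spondin partners and -0.62 for lipids.
The first sequencing project alone gave 1.62 for the unfolded protein response, -1.17 for secreted proteins and 0.43 for ion handling. The second gave 0.48 for ER translocation, 0.63 for degradation, 0.72 for N-glycosylation, -2.11 for secreted proteins, 0.12 for ion handling, 0.41 for junctions, -0.16 for ETS and FOX, and 1.81 for immediate early genes. The mean of per-cell CPM gave 1.05 for Notch and -0.55 for lipids, and members under 200 CPM of Ccdc153 gave 1.54 for the unfolded protein response.
Against lateral ventricle cells the medians were 0.49 for ER translocation, 1.03 for chaperones, 1.56 for the unfolded protein response, 0.68 for degradation, 0.67 for COPII and COPI, 0.68 for N-glycosylation, -0.62 for axonemal genes, 1.09 for Notch and 3.16 for immediate early genes. Leaving out 1 block in turn gave 1.17 to 1.77 for the unfolded protein response, 0.46 to 0.85 for ion handling, 0.54 to 0.99 for Notch, -0.64 to -0.35 for lipids, 1.91 to 2.13 for immediate early genes, and 747 to 805 higher and 797 to 816 lower genes.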
